A study of Mus musculus with 8 samples.

Results

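Glutathione S-transferases (GST), UDP-glycosyltransferases (UGT) and sulfotransferases (SULT), the enzymes that attach a water-soluble group to drugs, dietary chemicals, bile acids and hormones, were followed through mouse small-intestinal mucosa and tumours. Members were all genes whose symbol in the platform annotation starts with Gsta, Gstk, Gstm, Gsto, Gstp, Gstt, Gstz, Mgst, Sult or Ugt followed by a number and that have a probe set listing no other gene. This gave 47 of 18194 genes: 23 GST genes, 3 of them microsomal (Mgst), 11 UGT genes and 13 SULT genes. Of these, 34 had a mean signal above the filter on dim probe sets, 5.20 on the log2 scale, and were tested: 18 cytosolic or mitochondrial GST genes, all 3 Mgst genes, 6 SULT genes and 7 UGT genes. At least 1 comparison called 13 of the 34 members at an adjusted p under 0.05, and 21 were called in none. The matching share of all 13119 genes tested was not counted. Tumours against mucosa in control mice alone called 21.2% of them higher and 7.64% lower.

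All mice were C57BL/6, carried the Min mutation of Apc (Apc Min/+), which gives rise to intestinal tumours, and had both copies of Spint1 flanked by loxP sites (Spint1 flox/flox). Spint1 encodes HAI-1, a membrane-bound inhibitor of serine proteases. Mice without Cre are the controls, and Vil-Cre, driven by the villin promoter of intestinal epithelium, deletes Spint1 in the HAI-1 deficient mice, so the other cells of the tissue keep the gene. The 4 groups were non-tumour mucosa and tumours of control mice, and non-tumour mucosa and tumours of HAI-1 deficient mice, each with 2 arrays, and all mice ate the AIN-76 diet. The sources used here give no ages. Nor do the labels say whether the arrays of a group came from different mice, or whether tumour and mucosa came from the same mouse, so p-values measure only the spread between these samples.

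Conjugation is the second phase of detoxification. GST enzymes join reactive electrophiles to glutathione, UGT enzymes of families 1 and 2 add glucuronic acid from UDP-glucuronate, and SULT enzymes transfer sulfate from the donor PAPS. The absorptive cells of the small intestine, the enterocytes, carry many of these enzymes and pass the conjugates to efflux pumps, so that part of what is absorbed returns to the gut lumen.

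Array totals do not measure depth, and the number of arrays limits the precision. Spint1 had a log2 signal of 12.87 and 13.00 in control mucosa, 12.46 and 12.25 in deficient mucosa, 12.75 and 13.06 in control tumours and 11.76 and 11.84 in deficient tumours. It was lower in the deficient tissue without overlap, but neither difference was called in limma (adjusted p = 0.271 in mucosa and 0.779 in tumours). The ratio of 3' to 5' signal of Gapdh, a measure of intact RNA, was 25.9 on the second control tumour array and 0.803 to 1.77 on the others. The same ratio of Actb was 2.32 on that array and 1.15 to 1.52 on the others, a much smaller gap. Epithelial markers (8 genes) kept a summed log2 signal of 17.15 to 17.47 on all arrays, while the enterocyte list (15 of its 16 genes tested) lay at 18.34 to 18.60 in mucosa and 17.59 to 18.04 in tumours. Markers of fibroblasts (10 genes) ranged from 11.60 to 11.61 in control mucosa, 12.53 to 13.02 in deficient mucosa, 14.97 to 15.03 in control tumours and 14.45 to 14.58 in deficient tumours. In tissue RNA, fewer cells of a type and less RNA per cell cannot be told apart.

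**Figure D1:**
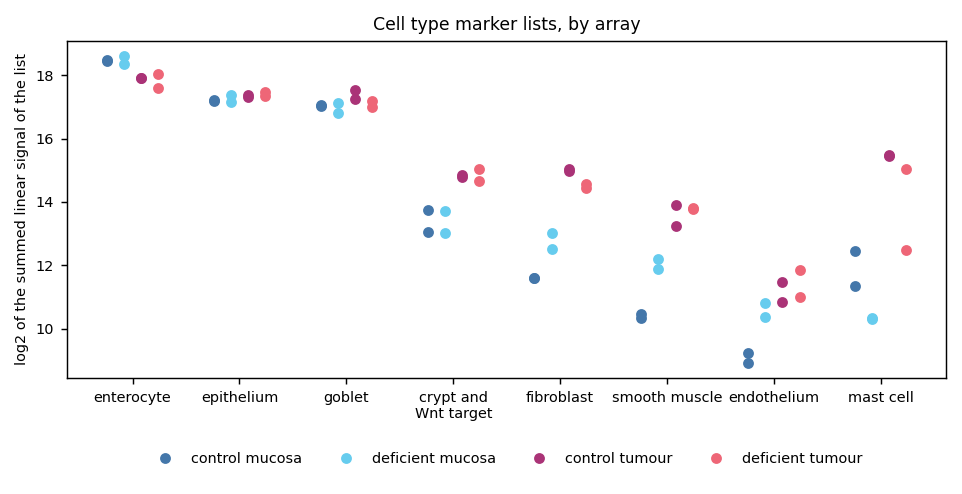
Summed log2 signal of marker lists on each of the 8 arrays; each point is 1 array, coloured by group. The enterocyte list lies at 17.59 to 18.04 on the tumour arrays and at 18.34 to 18.60 on the mucosa arrays, while the epithelium list stays between 17.15 and 17.47.

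In control mice, 8 of the 34 tested members fell and 3 rose in tumours against non-tumour mucosa. The share that fell, 23.5%, stands beside 7.64% of the 13119 genes tested; the share that rose, 8.82%, stands beside 21.2% of all genes. The members' median log2 difference was -0.50, against 0.24 over all genes tested, and 23 of the 34 were negative. Those that fell were Gstm3, Gstm6 and Gstz1, the sulfotransferases Sult1b1, Sult1d1 and Sult2b1, and Ugt2a3 and Ugt2b34. Of the 3 Mgst genes, 0 were called. Gsta4, Gstm5 and Ugt8a rose. In HAI-1 deficient mice, 6 of the 34 members fell, 17.6% beside 1.75% of all genes, and 0 rose, beside 2.45% of all genes. These were Gstm3, Gstp3, Mgst1, Sult1b1, Sult1d1 and Ugt2a3, and the members' median was -0.80, against 0.18 over all genes. With quantile normalization, the calls over all genes in deficient mice were 199 higher and 217 lower, in place of 321 and 230. The enterocyte list moved in the same direction: 6 of its 15 genes fell and 0 rose in control mice (median -0.55), and 4 fell and 0 rose in deficient mice (median -1.12). The part of this shift in the members' values was not tested.

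Gstm3, Sult1b1, Sult1d1 and Ugt2a3 fell in the tumours of both genotypes. They are 50% of the 8 members that fell in control mice and 66.7% of the 6 in deficient mice. The 2 comparisons share no array, but both use the spread of 1 fit of all 8 arrays, so the calls are not independent. The share of all genes that fell in both was not counted, so these percentages do not set the members apart from other genes. Ugt2a3, Sult1b1 and Sult1d1 lie in one region of chromosome 5, where the Ugt2 genes come before the Sult1 genes. They are not adjacent as a group: Ugt2b38, between Ugt2a3 and Sult1b1, had log2 differences of 0.09 and -0.07 near the filter value. Gstm3 lies in the Gstm cluster on chromosome 3. The promoter windows of these 4 genes are printed because they were called in both genotypes. Added are those of Gstm5, a gene of the same cluster as Gstm3 that rose, and of Gstp3, the member called after HAI-1 loss. Each window runs across the RefSeq start of the gene, most of it upstream, in RefSeq's GRCm38.p6, 5' to 3' on the gene's strand. Capitals mark matches to any of 4 short motifs, searched on both strands: TGACNNNGC (antioxidant response element core), GTTAAT (HNF1), TTTATNA (CDX) and GCGTG (AhR core).
Gstm3 (chr3:107969125-107969424, minus strand): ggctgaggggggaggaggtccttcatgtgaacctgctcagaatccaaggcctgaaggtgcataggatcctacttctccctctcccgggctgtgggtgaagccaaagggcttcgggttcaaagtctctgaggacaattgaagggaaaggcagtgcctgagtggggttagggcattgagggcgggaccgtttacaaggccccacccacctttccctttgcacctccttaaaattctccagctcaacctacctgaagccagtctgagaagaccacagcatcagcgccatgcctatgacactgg
Sult1b1 (chr5:87538146-87538445, minus strand): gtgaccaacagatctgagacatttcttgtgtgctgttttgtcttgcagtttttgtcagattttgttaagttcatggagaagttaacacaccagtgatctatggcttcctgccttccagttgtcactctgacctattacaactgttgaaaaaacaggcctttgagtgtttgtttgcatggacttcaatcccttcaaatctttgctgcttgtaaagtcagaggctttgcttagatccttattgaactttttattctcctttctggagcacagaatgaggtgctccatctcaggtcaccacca
Sult1d1 (chr5:87568957-87569256, minus strand): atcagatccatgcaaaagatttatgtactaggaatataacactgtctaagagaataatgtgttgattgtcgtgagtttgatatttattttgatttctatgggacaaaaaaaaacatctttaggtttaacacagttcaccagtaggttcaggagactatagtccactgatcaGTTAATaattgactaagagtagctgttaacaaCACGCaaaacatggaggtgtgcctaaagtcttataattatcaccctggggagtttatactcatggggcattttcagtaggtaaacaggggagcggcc
Ugt2a3 (chr5:87337146-87337445, minus strand): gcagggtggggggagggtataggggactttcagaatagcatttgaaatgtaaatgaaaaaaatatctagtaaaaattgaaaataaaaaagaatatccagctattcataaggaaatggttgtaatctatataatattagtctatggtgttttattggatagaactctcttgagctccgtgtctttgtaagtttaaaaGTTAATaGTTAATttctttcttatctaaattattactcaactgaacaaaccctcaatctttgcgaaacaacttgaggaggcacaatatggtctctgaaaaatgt
Gstm5 (chr3:107895604-107895903, plus strand): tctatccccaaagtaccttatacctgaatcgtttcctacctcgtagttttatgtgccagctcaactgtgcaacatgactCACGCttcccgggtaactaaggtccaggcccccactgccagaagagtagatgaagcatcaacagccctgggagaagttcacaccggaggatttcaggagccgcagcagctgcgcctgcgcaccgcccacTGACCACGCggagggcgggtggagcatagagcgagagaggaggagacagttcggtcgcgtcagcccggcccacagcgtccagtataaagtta
Gstp3 (chr19:4059398-4059697, minus strand): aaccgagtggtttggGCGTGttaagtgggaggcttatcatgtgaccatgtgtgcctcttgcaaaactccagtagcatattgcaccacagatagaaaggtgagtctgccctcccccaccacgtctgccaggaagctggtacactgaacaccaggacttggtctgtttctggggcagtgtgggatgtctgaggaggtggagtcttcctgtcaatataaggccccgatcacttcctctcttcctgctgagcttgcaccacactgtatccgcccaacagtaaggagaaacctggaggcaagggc

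Gstm3 and the printed Sult1b1 window held none of the 4 motifs; RefSeq lists 2 windows for Sult1b1, and the other has an AhR core. Sult1d1 and Ugt2a3 each held GTTAAT, which is in 7.1% of the 32851 promoter windows; Ugt2a3 has it 2 times. Gstm5 held TGACNNNGC, present in 12.4% of windows, and in it an overlapping GCGTG on the other strand. Over the family, 42 members had a window (54 windows in all). TGACNNNGC was in the windows of 4 of them (Gsta3, Gstm5, Gstm7 and Mgst1), GTTAAT in those of 5 (Gsta3, Sult1a1, Sult1d1, Ugt2a3 and Ugt3a1), TTTATNA, in 14.1% of all windows, in those of 2 (Mgst2 and Sult3a1), and GCGTG, in 32.4% of all windows, in those of 10. A match describes the letters only, and these windows hold no measurement of binding.

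Gstm3, a mu-class enzyme, was the GST gene that fell in the tumours of both genotypes. Its log2 signal was 13.58 and 13.42 in control mucosa, 12.98 and 13.10 in deficient mucosa, 11.40 and 11.34 in control tumours and 11.23 and 10.89 in deficient tumours. Every tumour array was below every mucosa array. It fell by 2.13 ± 0.24 on the log2 scale (SE of the fit) in control mice, which is 4.38-fold (limma adjusted p = 0.00182), and by 1.98 ± 0.24, or 3.95-fold, in deficient mice (adjusted p = 0.0254). A second Gstm3 probe set, not used for the test, gave log2 differences of -3.44 and -2.26.

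Gstm6, also of the mu class, fell in control tumours and was not called in deficient mice. It measured 10.31 and 9.66 in control mucosa and 7.91 and 6.49 in control tumours, a log2 difference of -2.78 ± 0.74 (6.88-fold lower, adjusted p = 0.0284). In deficient mice it measured 11.25 and 9.87 in mucosa and 8.06 and 9.83 in tumours, where the arrays are widely spread (-1.62, adjusted p = 0.223). The difference between the genotypes was not called. Without the second control tumour array, the one with the high Gapdh ratio, the control difference was -2.07 (adjusted p = 0.146).

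Gstz1, the maleylacetoacetate isomerase of tyrosine breakdown, was at 9.75 and 9.35 in control mucosa and 8.35 and 8.36 in control tumours. It fell by 1.19 ± 0.25 on the log2 scale, or 2.29-fold (adjusted p = 0.0127). Deficient mucosa, at 9.09 and 8.82, and deficient tumours, at 8.75 and 8.77, differed by -0.19 (adjusted p = 0.673). The interaction, which subtracts the genotype effect in mucosa from that in tumours, was 1.0 ± 0.36 and was not called (adjusted p = 0.484).

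Gstm5 rose in control tumours, and no other Gstm gene did. Its signal was 10.01 and 10.41 in control mucosa, 11.22 and 11.02 in deficient mucosa, 11.85 and 11.88 in control tumours and 12.06 and 12.66 in deficient tumours. The rise in control mice was 1.65 ± 0.29 on the log2 scale, or 3.14-fold (adjusted p = 0.00693). In deficient mice the groups did not overlap either, at a log2 difference of 1.24 ± 0.29 (adjusted p = 0.0584). In order along chromosome 3 the genes are Gstm5, Gstm7, Gstm6, Gstm3, Gstm2, Gstm1 and Gstm4. Among the others, Gstm2 had a log2 difference of -1.09 (adjusted p = 0.0602) and Gstm1 of -1.24 (adjusted p = 0.0881) in control mice. The 4 Gstm1 probe sets ranged from -1.24 to -0.49 there and from -2.0 to -1.15 in deficient mice, so they shared a sign but not a size. Gstm genes are close relatives, and a probe set can take signal from a neighbour, so each value is uncertain to that extent.

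**Figure D2:**
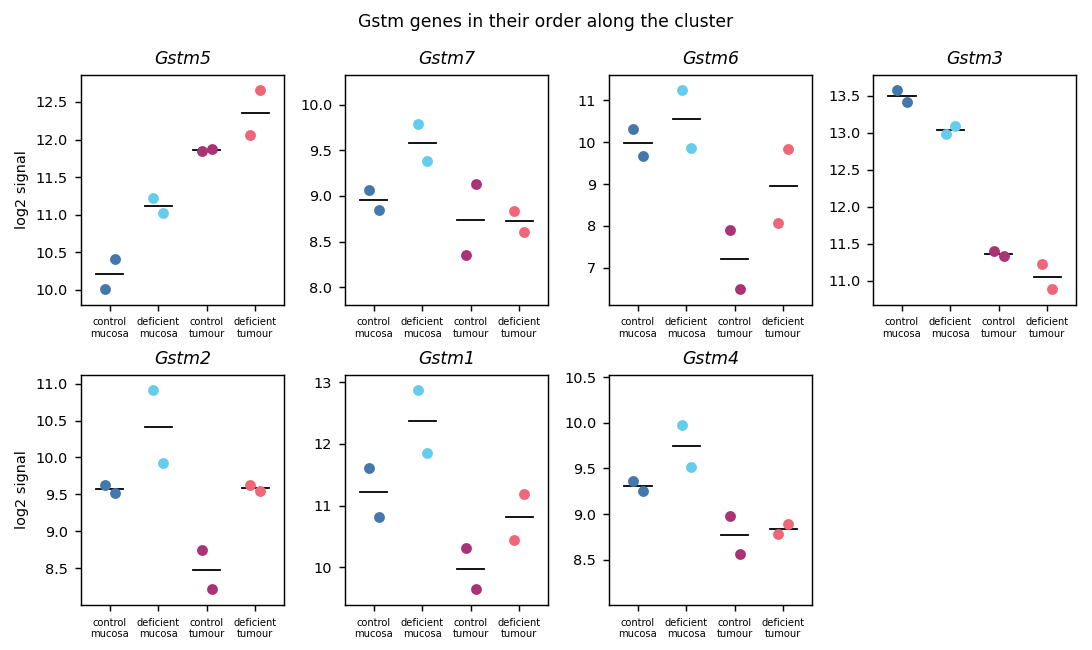
Log2 signal of the Gstm genes on each array, in their order along chromosome 3; each point is 1 of the 8 arrays, coloured by group. Gstm3 lies at 13.58 to 12.98 in mucosa and 11.40 to 10.89 in tumours, and Gstm5 shows the opposite order of tissues, from 10.01 in mucosa to 12.66 in tumours.

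Gsta4, which conjugates 4-hydroxynonenal from oxidised lipids, measured 11.48 and 11.74 in control mucosa and went to 12.33 and 13.71 in the tumours of those mice. Deficient mucosa was at 12.77 and 12.37 and deficient tumours at 13.38 and 12.97. It rose in control mice by 1.42 ± 0.45 on the log2 scale, or 2.67-fold, just past the threshold (adjusted p = 0.0498). The higher of its control tumour arrays is the one with the high Gapdh ratio, and without it the difference was 0.73 (adjusted p = 0.214). Deficient mice gave 0.60 (adjusted p = 0.441).

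Among the microsomal GST enzymes, Mgst1 fell in the tumours of deficient mice. Its mucosa arrays stood at 14.86 and 14.82 and its tumour arrays at 13.59 and 13.81, a fall of 1.14 ± 0.25 on the log2 scale, or 2.2-fold (adjusted p = 0.0491). This call ended with quantile normalization (adjusted p = 0.0612) and without any 1 of the 8 arrays. In control mice it went from 13.92 and 14.25 to 13.40 and 13.61, again without overlap but not called. Mgst2, which can also make leukotriene C4, was at 13.66 and 13.84 in deficient mucosa and 12.83 and 12.86 in deficient tumours (-0.90 ± 0.23, adjusted p = 0.0724). Mgst3 stayed between 13.70 and 14.42 on all 8 arrays.

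Of the 6 sulfotransferases tested, 3 fell in control tumours. Sult1b1, which sulfates phenols and thyroid hormones, was at 13.84 and 13.81 in control mucosa and 12.12 and 12.36 in control tumours. It was at 13.25 and 13.07 in deficient mucosa and 12.00 and 11.70 in deficient tumours, so that mucosa and tumours were fully separate. The falls were 1.58 ± 0.24 on the log2 scale (2.99-fold, adjusted p = 0.00451) in control mice and 1.31 ± 0.24 (2.48-fold, adjusted p = 0.0367) in deficient mice.

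Sult1d1, an enzyme for catecholamines and other amines and phenols, was at 13.68 and 14.03 in control mucosa, 13.41 and 13.92 in deficient mucosa, 12.01 and 12.97 in control tumours and 11.94 and 11.32 in deficient tumours. It fell by 1.36 ± 0.40 on the log2 scale in control mice (2.57-fold, adjusted p = 0.0392) and by 2.03 ± 0.40 in deficient mice (4.10-fold, adjusted p = 0.0404). Its second probe set gave -1.83 and -2.63. Leaving out the lower control tumour array, the first, gave a control difference of -0.89 (adjusted p = 0.189).

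Sult2b1, which sulfates cholesterol, was at 12.69 and 12.79 in control mucosa and 11.29 and 11.23 in control tumours, and fell by 1.48 ± 0.33 on the log2 scale, or 2.79-fold (adjusted p = 0.0156). Deficient mucosa, at 12.34 and 11.42, and deficient tumours, at 11.12 and 10.81, differed by -0.92 (adjusted p = 0.146). The other tested SULT genes were dim. Sult1c2 was at 4.95 to 6.11 on the mucosa arrays and 5.88 to 9.01 on the tumour arrays, and it was not called, at least 1.81 higher on the log2 scale in control tumours (adjusted p = 0.16) and 2.01 higher in deficient tumours (adjusted p = 0.238). Sult5a1 stayed between 5.79 and 6.59.

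Ugt2a3, a glucuronosyltransferase of bile acids and drugs, had the largest fall among the UGT genes. It was at 12.59 on both control mucosa arrays, 11.44 and 12.33 in deficient mucosa, 10.44 and 10.12 in control tumours and 9.64 and 9.48 in deficient tumours. It fell by 2.31 ± 0.33 on the log2 scale, or 4.96-fold, in control mice (adjusted p = 0.0036) and by 2.33 ± 0.33, or 5.02-fold, in deficient mice (adjusted p = 0.0281). Ugt2b34, of the same large family, was at 13.73 and 14.03 in control mucosa and 12.82 and 13.24 in control tumours, and fell by 0.85 ± 0.26 (1.80-fold, adjusted p = 0.0424). In deficient mice the difference was -0.89 ± 0.26, from 13.68 and 13.70 to 12.80 on both arrays, and was not called (adjusted p = 0.0927). Ugt2b36 was at 8.42 and 9.32 in control mucosa and 7.13 and 7.51 in control tumours (adjusted p = 0.0698). Ugt2b35, Ugt2b38 and Ugt2b5 overlapped between mucosa and tumours of control mice, with a range of 9.11 to 11.45 for Ugt2b35.

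Ugt8a ran the other way. It adds galactose, not glucuronic acid, to ceramide, the first step towards the sulfatide lipids of myelin and epithelia. Its log2 signal was 3.77 and 4.40 in control mucosa, under the filter value, 5.14 and 6.52 in deficient mucosa, 8.67 and 7.50 in control tumours and 8.10 and 8.68 in deficient tumours. With dim arrays raised to the filter value it was at least 7.36-fold higher in control tumours than in control mucosa (adjusted p = 0.00341 in limma on the values as deposited). In deficient mice it was at least 5.77-fold higher. There limma on the values as deposited just missed the threshold (adjusted p = 0.0504), and with dim arrays raised it passed (adjusted p = 0.0246). A second Ugt8a probe set, with a mean under the filter value, gave log2 differences of 1.07 and -1.39, so the sets disagree in deficient mice.

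**Figure D3:**
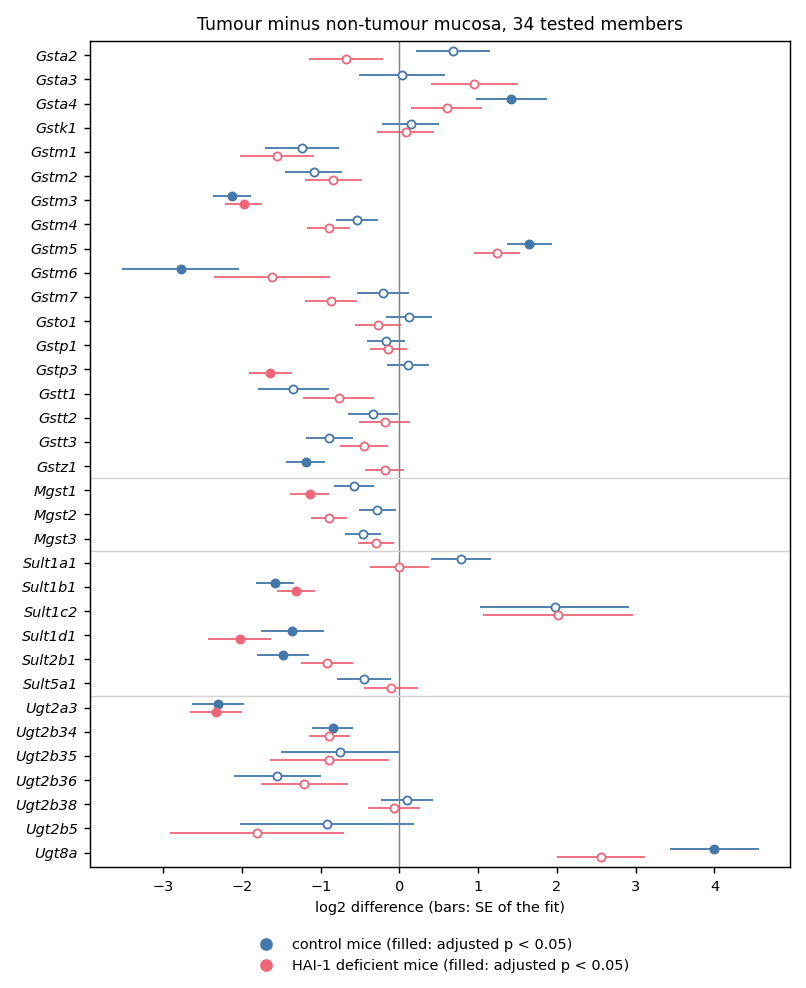
Log2 difference of tumour minus mucosa for the 34 tested members in control mice and in HAI-1 deficient mice; points are fitted differences and bars are ± 1 SE, with called members marked. Ugt2a3 lies at -2.31 and -2.33, Gstm3 at -2.13 and -1.98, and Ugt8a is drawn at its fitted 4.0 and 2.56, for which the lower bounds with dim arrays raised are 2.88 and 2.53.

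The calls of Gstm3, Gstm5, Sult1b1, Ugt2a3 and Ugt8a in control mice held without any 1 array and under the other alternatives tried; Ugt8a could not be fitted with the filter at the 60th percentile, which removes it. Each of the other 6 calls in control mice ended without at least 1 array. The log2 difference was 1.29, 1.55 and 0.73 for Gsta4, and -2.46, -3.10 and -2.07 for Gstm6, without the first control mucosa, second control mucosa and second control tumour array. Gstz1 was at -0.99 without the first control mucosa array and at -1.19 and -1.20 without the first and second control tumour array. Sult1d1 was at -1.54, -1.19 and -0.89 with the first control mucosa, the second control mucosa or the first control tumour array left out. Leaving out any 1 of those 4 arrays ended the calls of Sult2b1 (-1.53 to -1.43) and Ugt2b34 (-1.06 to -0.64). Calls of Gsta4 and Ugt2b34 also ended without any 1 array of deficient mice, and that of Sult1d1 without either deficient mucosa array, at unmoved differences, since those arrays enter only the estimate of spread. The number of members called in control mice was 5 and 6 without the first and second control mucosa array, 7 without either control tumour array and 9 without any 1 array of deficient mice. In deficient mice it was 0 without any 1 mucosa array of either genotype or either deficient tumour array, and 4 without either control tumour array, while the differences of the 6 kept their sign. Without the filter on dim probe sets, all 6 calls in deficient mice and those of Gsta4, Gstm6, Sult1d1 and Ugt2b34 in control mice ended at the same differences, with more genes in the adjustment.

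**Figure D4:**
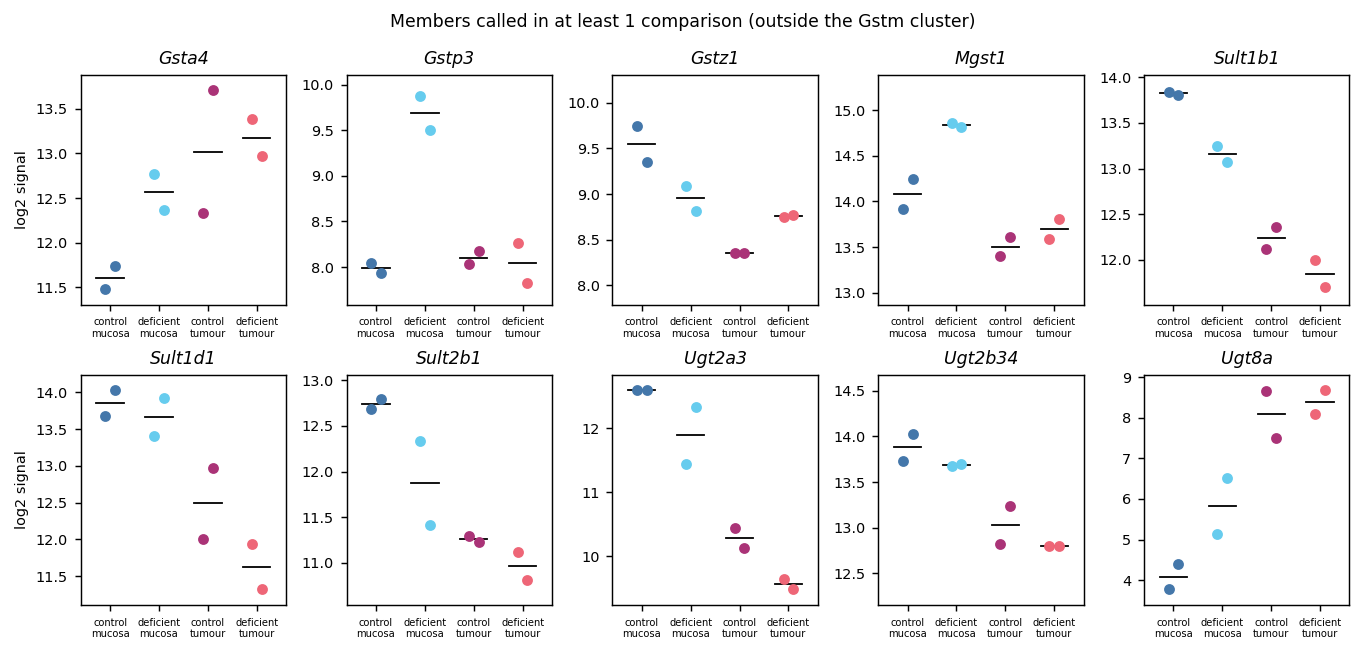
Log2 signal of 10 of the 13 members called in at least 1 comparison, those outside the Gstm cluster; each point is 1 of the 8 arrays, coloured by group, and lines are group means on axes that do not start at 0. Gstz1, Mgst1, Sult1b1, Sult1d1, Sult2b1, Ugt2a3 and Ugt2b34 are lower on all 4 tumour arrays than on all 4 mucosa arrays, and Ugt8a is higher. Gstp3 is high only in deficient mucosa, at 9.87 and 9.50.

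HAI-1 loss in non-tumour mucosa raised 1 of the 34 members, Gstp3, and lowered 0; over all genes 0.899% rose and 0.152% fell. At an unadjusted p under 0.05, limma gave 12 of the 34 members and 2295 of 13119 genes. Gstp3, a pi-class GST, was at 8.05 and 7.94 in control mucosa and 9.87 and 9.50 in deficient mucosa. It was 1.69 ± 0.27 higher on the log2 scale, or 3.23-fold (adjusted p = 0.0435). Tumours did not show this level, at 8.03 and 8.18 in control and 8.26 and 7.83 in deficient mice, so Gstp3 fell from mucosa to tumour in deficient mice by 1.64 ± 0.27, or 3.12-fold (adjusted p = 0.0305). Both calls use the same deficient mucosa arrays, so they are not independent. The interaction was -1.75 ± 0.38 and was not called (adjusted p = 0.269). The call after HAI-1 loss ended without either array of control mucosa, deficient mucosa or control tumours, at differences of 1.51 to 1.87 and adjusted p of 0.0738 to 0.151, and with quantile normalization, at 1.53 and an adjusted p of 0.0801. Gstp1, its relative of the pi class, stayed between 14.03 and 14.49 on all 8 arrays.

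Several other GST genes were higher in deficient mucosa without passing the test. Gsta2 was at 7.35 and 8.35 in control mucosa and 9.34 and 9.73 in deficient mucosa (1.68 ± 0.47, adjusted p = 0.126). Gsta3 was at 6.95 and 7.17 against 8.70 and 8.16 (1.37 ± 0.55, adjusted p = 0.259), with a difference of 1.36 on its second probe set. Gstm1 was at 11.61 and 10.82 against 12.87 and 11.86 (1.15 ± 0.47, adjusted p = 0.268), and its other probe sets gave 1.42, 1.51 and 0.46. These alpha and mu enzymes conjugate a wide range of electrophiles. Gstm5 differed by 0.91 ± 0.29 (adjusted p = 0.172) and Mgst1 by 0.75 ± 0.25 (adjusted p = 0.177). The 18 cytosolic and mitochondrial GST genes had a median of 0.50 and the 7 UGT genes one of -0.50, with 6 of the 7 negative, beside 0.11 over all genes.

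Sult1a1, a phenol sulfotransferase, was at 6.01 and 5.08 in control mucosa and 7.30 and 7.39 in deficient mucosa. This is at least 3.34-fold, and it was not called in limma on the values as deposited (adjusted p = 0.0703). Ugt8a was at least 1.58-fold higher (adjusted p = 0.171). On the lower side, the smallest p-values belonged to Ugt2b38, Sult1b1 and Sult2b1. Ugt2b38 was at 5.56 and 6.02 in control and 4.73 and 4.97 in deficient mucosa, at least 1.5-fold lower (adjusted p = 0.197). Sult1b1 differed by -0.66 ± 0.24 (adjusted p = 0.218) and Sult2b1 by -0.86 ± 0.33 (adjusted p = 0.244), with separate groups for both. Gstt1, which conjugates small halogenated compounds, was at 11.91 and 11.23 against 10.90 and 10.22 (-1.02, adjusted p = 0.299). Marker lists of other cells also differed in deficient mucosa. Fibroblast markers had a median log2 difference of 1.28 (0 of 10 called), smooth muscle 0.97 (1 of 8 rose, all 8 positive), endothelium 1.65 (1 of 7 rose), gastric genes 2.53 (1 of 8 rose, all 8 positive) and crypt and Wnt target genes 0.62 (1 of 10 rose). T and NK cell markers had a median of -1.39 (all 8 negative) and mast cell markers one of -1.66 (5 of 6 negative), with 0 called in both. The enterocyte and epithelium lists had medians of 0.04 and 0.08, with 0 called. The part of these lists in the members' values was not tested.

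**Figure D5:**
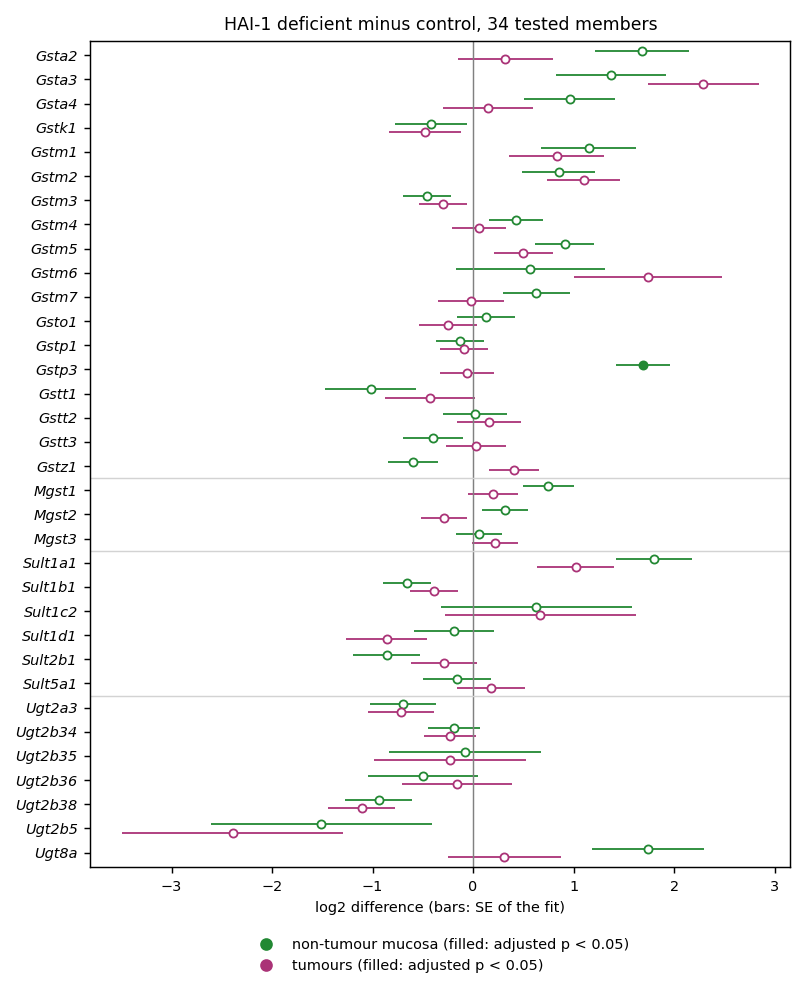
Log2 difference of HAI-1 deficient minus control for the 34 tested members in mucosa and in tumours; points are fitted differences and bars are ± 1 SE, with called members marked. Gstp3 in mucosa, at 1.69, is the called value. Gsta3 in tumours lies at 2.29, and Ugt2b5 in tumours is drawn at its fitted -2.39, which includes an array under the filter value.

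In tumours, HAI-1 loss called 0 of the 34 members in either direction, beside 0% of all genes. At an unadjusted p under 0.05, limma gave 5 members and 802 of 13119 genes, and all 6 members named here had an adjusted p of 0.779. Gsta3 was at 7.70 and 6.48 in control tumours and 10.09 and 8.67 in deficient tumours, a log2 difference of 2.29 ± 0.55 with separate groups. Its second probe set, not used for the test, gave a smaller difference of 1.2. Gstm2 differed by 1.10 ± 0.36, from 8.75 and 8.21 to 9.62 and 9.54. Sult1a1 went from 5.99 and 6.66 to 7.50 and 7.20 (1.02 ± 0.38). Ugt2b38 was at 5.66 and 6.10 against 5.10 and 4.45, at least 1.60-fold lower, and Ugt2a3 was lower by -0.72. Ugt2b5 was at 8.34 and 9.17 against 7.76 and 4.97, at least 4.85-fold lower; without the second deficient tumour array, the dim one, the log2 difference was -1.0. Of the 6, Gsta3, Gstm2 and Sult1a1 were higher and Ugt2a3 and Ugt2b38 lower in deficient tissue of both kinds, without overlap and without a call in either. Outside the 6, Gstm1 and Gstm5 were higher and Gstm3, Sult1b1, Sult2b1 and Ugt2b34 lower in the same way. The 6 were picked by their p-value in tumours, which favours separate groups there. The share of all genes with this pattern was not counted. With 2 arrays a group, the pattern does not set these members apart from other genes.

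The interaction called 0 members and 0% of all genes; at an unadjusted p under 0.05 limma gave 2 members and 1211 genes. Gstp3 and Gstz1 had the smallest p-values, in opposite directions. Gsta2 followed at -1.36 (adjusted p = 0.6) and Mgst2 at -0.62 (adjusted p = 0.633), and on the positive side Sult2b1 at 0.57 (adjusted p = 0.75) and Gsta3 at 0.92 (adjusted p = 0.756). With 2 arrays a group, these values do not show that HAI-1 loss acts alike in mucosa and tumours.

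Other GST members were called in no comparison. Gsto1, which reduces dehydroascorbate, lay between 13.55 and 14.27, and Gstk1, of mitochondria and peroxisomes, between 11.45 and 12.66. Gstt2 lay between 9.97 and 10.77 and Gstt3 between 9.62 and 10.98. Gstm4 and Gstm7 ranged from 8.35 to 9.97.

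Not tested were 13 members with a mean signal under the filter value: Sult1c1, Sult1e1, Sult2a2, Sult2a8, Sult3a1, Sult4a1, Sult6b1, Ugt2b1, Ugt2b37, Ugt3a1, Ugt3a2, Gsto2 and Gstt4. On all 8 arrays 10 of them were under it, and their signals are too dim to order. Sult4a1 was above it on 3 arrays, at up to 6.34 in a deficient tumour, Ugt3a1 on 2 and Ugt3a2 on 1. Of the 34 tested members, 29 were at or above the filter value on every array; Sult1a1, Ugt2b5, Sult1c2, Ugt8a and Ugt2b38 were not.

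The UGT1A enzymes, which glucuronidate bilirubin and many phenols, share most of their transcript, and no Ugt1a gene had a probe set of its own in the annotation used. The 3 probe sets that list 8 Ugt1a genes were not members. The first was at 13.89 and 14.01 in control mucosa, 14.13 and 14.14 in deficient mucosa, 13.04 and 13.54 in the control tumours and 12.96 and 13.05 in deficient tumours. Log2 differences of tumour against mucosa over the 3 sets were -0.66, -0.31 and -1.77 in control mice and -1.13, -0.51 and -1.51 in deficient mice, negative in all and not tested. HAI-1 loss in mucosa gave 0.18, 0.10 and 0.20. A probe set shared by Gsta1, Gsta2 and Gm3776 ranged from 13.74 to 14.75.

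Partners of the conjugating enzymes were followed as lists. Glutathione supply (11 of 12 genes tested) had 1 gene that rose in control tumours, Cbs, a cysteine synthesis enzyme, at least 1.98 higher on the log2 scale, and 0 calls in the other comparisons. UDP-glucuronate supply (3 genes, including Ugdh, which makes the donor) had 0 calls, with medians of -0.15 and -0.34 in the tumours of control and deficient mice. In the sulfate list (6 of 8 tested), the sulfate and anion carrier genes Slc26a3 and Slc26a2 fell in control tumours, by 1.63 and 1.45 on the log2 scale, and Slc26a3 fell in deficient tumours by 1.93.

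Conjugate export and breakdown moved in both directions. Abcg2, a pump for sulfate and glucuronide conjugates at the luminal membrane, was at 12.90 and 13.22 in control mucosa and 11.39 and 10.92 in control tumours. It fell by 1.90 ± 0.27 on the log2 scale (adjusted p = 0.00341) in control and 1.57 in deficient mice (adjusted p = 0.0312). The pumps Abcc1 and Abcc4 rose in control tumours, by 2.58 and 2.74, making 2 higher and 1 lower of 6 tested. Dpep1 and Nat8 act one after the other on glutathione conjugates, trimming them and making mercapturates, and Acy1 removes acetyl groups from amino acids. All 3 fell in both genotypes. In control and deficient mice Dpep1 fell by 2.75 and 2.02, Nat8 fell by 2.13 and 2.11, and Acy1 fell by 2.37 and 1.55 on the log2 scale. The hydrolysis list (6 of 7 tested) had 2 higher and 4 lower in control and 1 higher and 2 lower in deficient mice. In control tumours Gusb, the beta-glucuronidase of lysosomes, rose by 2.09 and the mercapturate deacetylase Acy3 fell by 1.57. The sulfatase Arsb rose in both genotypes, by 1.56 in control and 1.16 in deficient tumours. Arsa, the other sulfatase tested in the list, went the other way. It was at -1.5 in control mice (limma adjusted p = 0.00762) and at -1.03 in deficient mice, where it was not called (adjusted p = 0.0774).

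The list of other conjugating enzymes (11 of 14 tested) had 2 higher and 3 lower in control mice and 1 lower, Nat8, in deficient mice. Ltc4s, which joins glutathione to leukotriene A4, fell by 3.17 on the log2 scale in control tumours (adjusted p = 0.00566). The methyltransferase genes Nnmt, 1.44 higher, and Hnmt, at least 0.77 higher, rose there. Phase 1 enzymes (11 of 13 tested) had 2 higher and 5 lower in control mice. Cyp1b1, which oxidises aromatic hydrocarbons, rose by 3.08, and Cyp2c55, Cyp2b10 and Aldh1a1 fell by 2.53, 2.45 and 2.17. In deficient mice 0 rose and 3 fell: Cyp2b10 fell by 3.57, Ces2a fell by 2.46 and Ephx2 fell by 2.22, and these also fell in control mice.

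Among 17 of 19 listed regulators that were tested, 3 rose and 3 fell in control tumours, and 2 rose and 2 fell in deficient tumours. Foxa1, a pioneer factor of endoderm, had the largest difference of the list in control mice and rose by 2.68 (adjusted p = 0.00118), then by 1.48 in deficient mice (adjusted p = 0.0306). Its relative Foxa3 rose by 1.57 and 1.42, and the aryl hydrocarbon receptor gene Ahr rose by 1.40 in control mice (adjusted p = 0.0413). The xenobiotic receptor gene Nr1i3 (CAR) fell by 2.06 and 1.89 on the log2 scale, and Hnf4g, a factor of enterocyte genes, by 1.93 and 1.85. Nr1i2 (PXR) fell by 1.42 in control mice (adjusted p = 0.0191). Of 13 of 16 listed NRF2 targets tested, 2 rose and 0 fell after HAI-1 loss in mucosa. Akr1b8, an aldo-keto reductase, was at 9.48 and 9.72 in control and 12.11 and 11.72 in deficient mucosa (2.32 ± 0.26, adjusted p = 0.0348), and the carbonyl reductase Cbr3 was at least 3.8 higher on the log2 scale (adjusted p = 0.0448). Nqo1, a defining NRF2 target, differed by 0.52 (adjusted p = 0.522). Akr1b8 and Cbr3 also rose in control tumours against control mucosa, Akr1b8 by 2.66 (adjusted p = 0.00136) and Cbr3 by at least 3.24; this comparison shares the control mucosa arrays. There 4 of the 13 rose, with Hmox1, at least 2.93 higher, and Me1, 2.71 higher. The 2 that fell were Srxn1, at -1.85 (limma adjusted p = 0.0155), and Cbr1, at -0.98 (adjusted p = 0.0278). Nqo1 had a log2 difference of 0 there. In deficient mice 0 of the list rose and 0 fell in tumours against mucosa. After HAI-1 loss in tumours, all 9 lists had 0 calls.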

How the data were processed

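RNA of 8 samples was measured on Affymetrix mouse arrays from 6 ug of total RNA per the labels. The authors deposited log2 signals for 45101 probe sets. The submitters' processing notes name MAS5 and RMA; the sources used here give no versions, roles or genome build. The deposited log2 values are of the MAS5 kind: on the linear scale, each array's mean with 2% trimmed at either end was 500.003 to 500.004. They were used without further scaling, and dim signals carry large log2 errors.

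In the platform annotation 34958 probe sets have 1 gene, 932 have several and 9211 have none. Probe sets with a mean under the 40th percentile (5.20 on the log2 scale, 36.8 linear) were removed, and the brightest single-gene set on average stood for its gene, which left 13119 genes. With limma 3.58.1 (R 4.3.3), 1 model of 4 group means covered the 8 arrays, on 4 residual plus 3.52 prior degrees of freedom. All 5 contrasts were tested two-sided, with Benjamini-Hochberg adjustment over all genes and calls at an adjusted p under 0.05. Where the lower group had an array under 5.20, folds are lower bounds ("at least"), with such arrays raised to 5.20. The adjusted p beside such a bound is from the fit of the values as deposited, unless stated otherwise. The script was tested on simulated data.

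Named were up to 10 called members per direction and comparison without overlap between groups, largest first, or, where none passed, the 3 with the smallest p; others for their level or class. Pathway genes were named where called with a log2 difference of at least 1, up to 4 per list and comparison, or as a defining gene. Ahr, Nr1i2, Arsa, Srxn1, Cbr1 and the control value of Arsb were added after their values were seen. The members and lists were chosen with earlier results of these data known. Promoter windows are RefSeq's, GRCm38.p6. Alternatives covered normalization, filter, floor, probe set choice, variance trend, replicate and spike-in blocks, fewer groups and each array left out.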

Additional observations from a re-analysis of the deposited data

Results flagged for a closer look

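For 2 members the effect of HAI-1 loss ran in opposite directions in the mucosa and the tumours on every array. The interaction in limma was not called for either, and the share of all genes with this pattern was not counted. With 2 arrays a group, the pattern does not set these 2 members apart. Gstz1 was at 9.75 and 9.35 in control against 9.09 and 8.82 in deficient mucosa, and at 8.35 and 8.36 in control against 8.75 and 8.77 in deficient tumours, an interaction of 1.0 on the log2 scale (adjusted p = 0.484). Mgst2 was at 13.43 and 13.41 against 13.66 and 13.84 in mucosa and at 13.02 and 13.27 against 12.83 and 12.86 in tumours, an interaction of -0.62 (adjusted p = 0.633).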

How the results depend on the processing

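Of the 36 pairs of member and comparison named by rule, 0 changed sign in any alternative tried, and of 18 called pairs 5 kept their call in all that could be run for them (for Ugt8a, not the 60th percentile filter). After HAI-1 loss in mucosa the count of members called, 1, was 0 with quantile normalization, without the filter and when only the groups compared were fitted, 2 with a floor at the 40th percentile, and 0 to 1 without single arrays. In control mice the tumour count, 11, was 5 to 9 without single arrays and 9 to 16 otherwise. In deficient mice the tumour count, 6, was 0 without the filter and when only the groups compared were fitted, 10 with a mean-variance trend, and 0 to 4 without single arrays. Some of these fits have fewer arrays or more genes, and the cause of the changed counts was not tested. The counts of 0 for HAI-1 loss in tumours and for the interaction stayed at 0. Ugt8a in deficient mice passed with the floor (adjusted p = 0.0246), the trend (0.0301) and the spike-in block (0.0431), and Gstm5 with the floor (0.0388), the trend (0.0245) and a filter at the 60th percentile (0.0305).

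Same-numbered arrays did not deviate together (correlations of -0.14 to 0.22), so the numbers were not taken to pair samples. With the replicate block the counts were 0 after HAI-1 loss in mucosa, 11 in control and 3 in deficient mice.

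The poly-A spike-in signal was 5.85 to 6.48 on 5 arrays and 7.15 to 7.74 on 3, the second of control mucosa, of deficient mucosa and of deficient tumours. With that as a block the counts were 1, 9 and 5. Within the low and high arrays Gstp3 differed by 1.82 and 1.56 after HAI-1 loss in mucosa. Both control tumour arrays are low. Signals under 5.20 on the log2 scale limit the dim members, and 2 arrays a group limit all.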
